A study of Mus musculus with 6 samples.

Results

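The nuclear genes for the subunits of oxidative phosphorylation were examined in mouse gonadotrope-derived cells with reduced Gnas transcript. A gene was taken when its symbol began with Ndufa, Ndufb, Ndufc, Ndufs, Ndufv, Uqcr, Atp5 or Cox4 to Cox8, or was Sdha, Sdhb, Sdhc, Sdhd or Cyc1. This took 136 of the 45281 probes, for 88 of the 19057 genes with a symbol of their own. Of these 88 genes, 79 had a probe above background on at least 3 of the 6 arrays, against 11442 genes in all. The values came from LβT2 cells, a line derived from mouse pituitary gonadotropes and labelled with the strain CB6F1/J, kept in medium with 10% serum. There were 3 samples with scrambled siRNA and 3 with Gas siRNA, all transfected for 48 h, and each gave total RNA to 1 Illumina mouse BeadChip array. All samples are of 1 line, and the labels do not state whether replicates came from separate cultures, so that the spread behind each p-value may be a technical one.

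Oxidative phosphorylation makes most of the ATP of a resting animal cell. Complex I (NADH dehydrogenase) and complex II (succinate dehydrogenase) pass electrons to coenzyme Q. Complex III hands them to cytochrome c, complex IV (cytochrome c oxidase) reduces oxygen, and complex V (ATP synthase) uses the resulting proton gradient. Mitochondrial DNA encodes core subunits of complexes I, III and IV and membrane subunits of complex V, which the chosen families do not cover. The nuclear subunits include tissue-restricted isoforms, above all in complex IV. Gs alpha, the product of Gnas, activates adenylyl cyclase, and the cAMP formed acts through protein kinase A and the transcription factor CREB, which binds cAMP response elements. Promoters of respiratory chain genes are known for binding sites of the factors NRF1, GABP (an ETS factor) and YY1.

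Promoter windows of 250 bases before to 50 bases after the start, from RefSeq on GRCm38.p6, matched 72 of the 88 genes. Fixed letters were searched on both strands, in these 72 and in the windows of 27025 genes. The NRF1 core GCGCATG was in 20.8% of the member windows and 4.04% of all windows. The ETS and GABP core CCGGAAG was in 23.6% against 9.12%, and the YY1 core AAGATGG in 13.9% against 6.48%. The myogenic E-box letters CAGCTG were less frequent in member windows, in 5 of the 72 (6.94%) against 16.1% of all windows. The cAMP response element letters TGACGTC were in 6 of the 72 windows (8.33%) against 3.33% of all windows, and their inner part TGACG, which any TGACGTC also contains, was in 34.7% against 21.0%. These are matches of letters and not measured sites. The stretches of 60 bases below, all before the start, are shown because these 6 genes carry the letters through which CREB binds, and Cox6a1 because it is the partner of the isoform that changed. Each reads 5′ to 3′ along its gene. Capitals mark TGACGTC or its reverse complement, which run together as TGACGTCA where they overlap, and for Cox6a1 the ETS core as its reverse complement.
Ndufa5, chr6:24527717-24527776, minus strand: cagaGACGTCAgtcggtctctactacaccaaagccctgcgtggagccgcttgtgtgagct
Ndufa10, chr1:92473793-92473852, minus strand: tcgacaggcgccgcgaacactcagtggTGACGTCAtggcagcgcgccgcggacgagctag
Ndufa11, chr17:56717577-56717636, plus strand: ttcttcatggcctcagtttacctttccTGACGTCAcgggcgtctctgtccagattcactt
Ndufb2, chr6:39592505-39592564, plus strand: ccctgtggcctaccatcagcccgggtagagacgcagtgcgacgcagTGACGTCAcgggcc
Uqcrfs1, chr13:30545317-30545376, minus strand: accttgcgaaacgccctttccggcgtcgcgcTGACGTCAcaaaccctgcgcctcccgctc
Atp5md, chr19:47090734-47090793, minus strand: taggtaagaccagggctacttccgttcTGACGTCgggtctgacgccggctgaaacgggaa
Cox6a1, chr5:115348959-115349018, minus strand: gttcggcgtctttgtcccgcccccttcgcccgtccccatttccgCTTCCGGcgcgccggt
In Ndufb2 the capitals begin 14 bases before the start, in Uqcrfs1 29 bases and in Ndufa10 67 bases before it. RefSeq lists 2 windows for Ndufa5, and the one listed first was used. Cox6a2 and Cox4i1 had no window here.

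Values below are log2 intensities after background correction and quantile normalization, and a log2 change is Gas siRNA minus scrambled siRNA. Tests are limma with an intensity trend, adjusted by the Benjamini-Hochberg method over all 21535 kept probes, and a gene passed at an adjusted p under 0.05. The target was checked first. The brightest Gnas probe was at 11.81 ± 0.057 with scrambled siRNA and 8.90 ± 0.062 with Gas siRNA (SD, n = 3 each), a log2 change of -2.91 (limma adjusted p = 6.08e-20). The next brightest gave -3.01 (adjusted p = 6.11e-17). The other 5 of the 7 kept Gnas probes, at mean log2 intensities of 5.01 to 5.44, had changes from -0.90 to 0.20 and did not pass, and with all probes averaged the change was -1.12 (adjusted p = 5.04e-04). The gonadotrope identity was checked on 11 marker genes, of which 10 were measured, with Cga at 14.74 and Gnrhr at 13.87 in scrambled siRNA samples, and Fshb below background on every array. Correlations between arrays across probes were 0.99217 to 0.99251 within groups and 0.99117 to 0.99215 between groups. With 3 arrays in each group, the number of arrays limits the precision. In these bulk samples, less RNA per cell and fewer cells with the transcript cannot be told apart.

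Gas siRNA was compared with scrambled siRNA to ask whether the respiratory chain genes differed with the loss of Gnas transcript, complex by complex. One gene passed, the striated muscle isoform Cox6a2 of complex IV, which rose 1.98-fold. Of the 79 measured members 1 was higher (1.27%), against 0.734% of all measured genes, and 0 were lower, against 0.979% of all genes, in limma. At an unadjusted p under 0.05, 8 members were higher and 0 lower, where all genes gave 5.68% higher and 5.65% lower and the 8 members are 10.1%. The median log2 change over all members was 0.049, against -0.00022 over all genes, and 69.6% of members lay above 0, against 49.9% of all genes. The 3 arrays of each group did not overlap for 12 members that were higher (15.2%) and 1 that was lower (1.27%), against 7.73% and 8.38% of all genes. The count of 8 became 14 without scrambled siRNA replicate 1 and 5 without scrambled siRNA replicate 3.

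**Figure D1:**
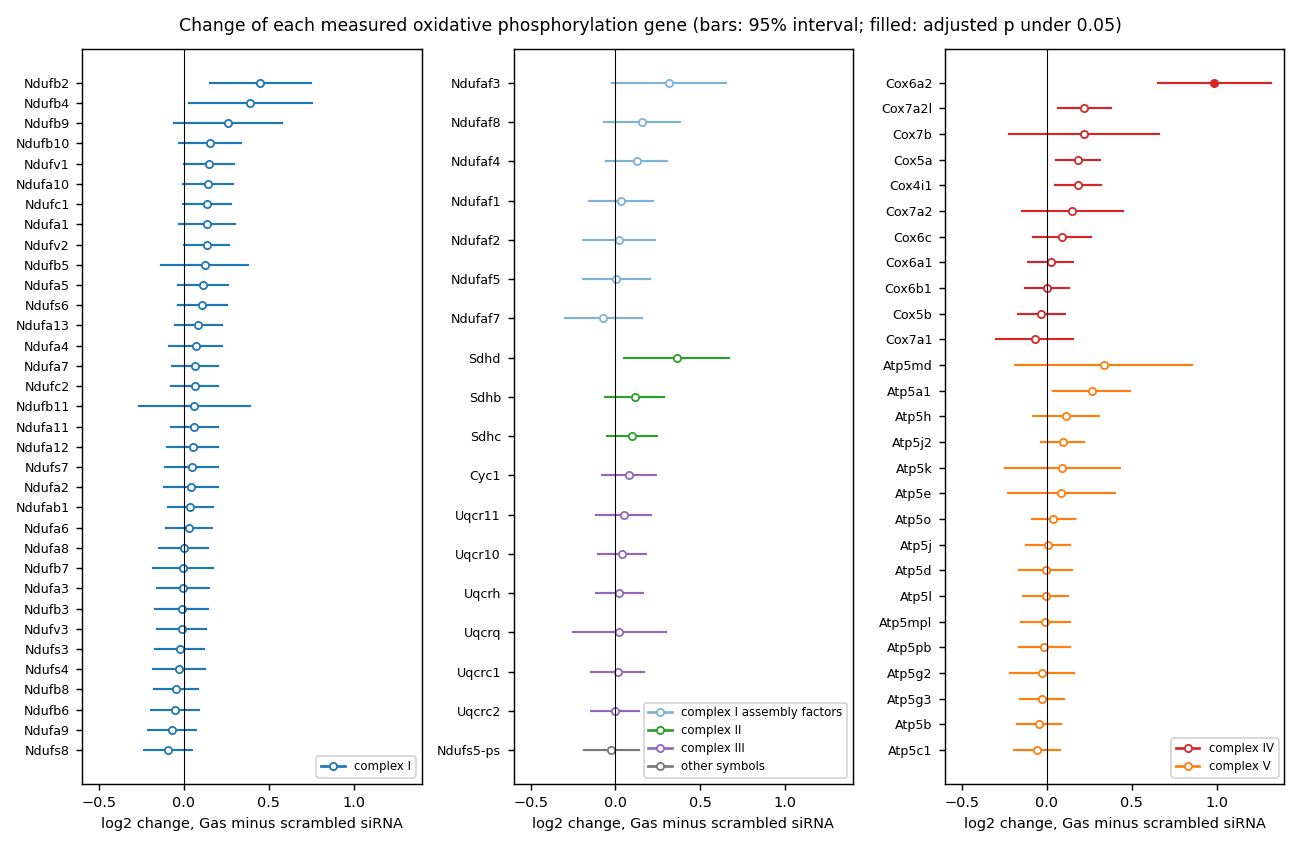
Log2 change, Gas siRNA minus scrambled siRNA, of the 79 measured members with 95% intervals from limma, coloured by complex. The filled point, Cox6a2 at 0.99, is the 1 member that passed, and the others lie between -0.095 and 0.45.

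By complex, the median log2 change was 0.061 over the 34 measured subunits of complex I, 0.11 over the 3 of complex II and 0.024 over the 7 of complex III. It was 0.15 over the 11 of complex IV, or 0.12 without Cox6a2, and -0.00098 over the 16 of complex V. The 7 complex I assembly factors that share the Nduf prefix had a median of 0.033. No test was made between complexes. The number of members above 0 was 23 of 34 for complex I, 3 of 3 for complex II, 6 of 7 for complex III, 9 of 11 for complex IV and 8 of 16 for complex V. The complex III median was 0.072 without scrambled siRNA replicate 2, 0.050 without Gas siRNA replicate 1 or 2 and 0.017 without Gas siRNA replicate 3. That of complex V was 0.034 without scrambled siRNA replicate 1 and 0.025 without Gas siRNA replicate 1, that of complex II 0.19 without scrambled siRNA replicate 1, and that of complex I 0.040 without Gas siRNA replicate 3. The complex IV median rested in part on single arrays, being 0.029 without scrambled siRNA replicate 2, 0.092 without Gas siRNA replicate 2 and 0.088 with no background correction.

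Array by array, the median deviation of the complex IV genes from each gene's own mean was -0.028, -0.083 and -0.11 in scrambled siRNA replicates 1 to 3. In Gas siRNA replicates 1 to 3 it was 0.038, 0.097 and 0.049, so the groups did not overlap. For complex I the values were -0.0044, -0.036 and -0.031 with scrambled siRNA and 0.0058, 0.025 and 0.060 with Gas siRNA, also without overlap and with a smaller gap. Those of complex III (-0.046 to 0.051 with scrambled siRNA, 0.0060 to 0.021 with Gas siRNA) and complex V (-0.024 to 0.019 and -0.011 to 0.044) overlapped. Complex II, with 3 genes, overlapped too and had the widest spread, from -0.21 to 0.082 with scrambled siRNA. Over all measured genes the array medians stayed between -0.00092 and 0.0088, where quantile normalization keeps them near 0. They do not show how far a set of few genes varies between arrays. The complex IV values include Cox6a2, and no test was made on these array medians.

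**Figure D2:**
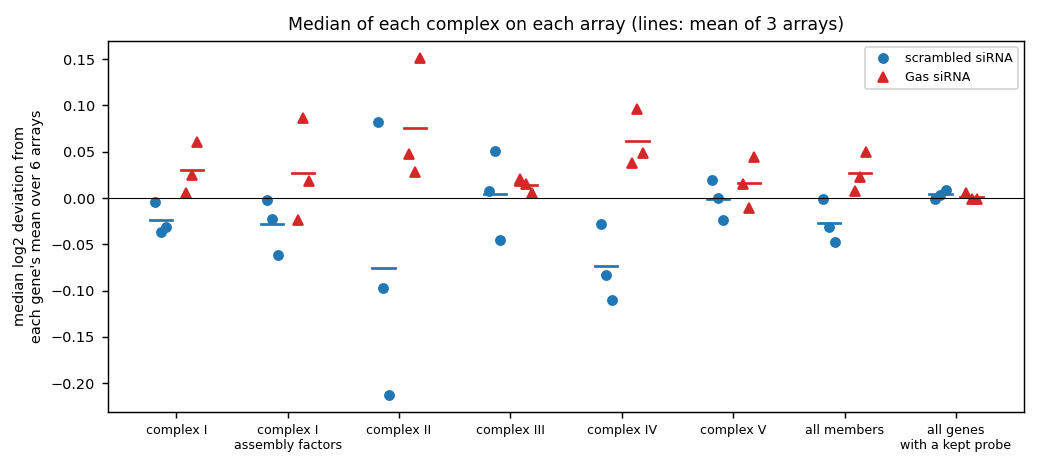
Median over the genes of each complex of the log2 deviation from the gene's mean over 6 arrays, 1 point per array, with circles for scrambled siRNA, triangles for Gas siRNA and lines for the mean of 3 arrays. The groups separate for complexes I and IV and overlap for complexes II, III and V.

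Complex I is the largest complex of the chain, and 34 of its 35 listed genes were measured. None of them passed in limma. At an unadjusted p under 0.05, 2 (5.88%) were higher and 0 lower, against 5.68% and 5.65% of all genes. The 95% interval of 31 (91.2%) lay within 0.5 log2 units of 0. Over all genes that share was 62.1%, and 96.8% among genes with a mean log2 intensity of 10 or more. Ndufb2, an accessory subunit of the membrane arm, had the largest log2 change and the smallest p. It was at 7.38, 7.19 and 7.11 with scrambled siRNA and at 7.64, 7.54 and 7.83 with Gas siRNA. All Gas siRNA arrays lay above all scrambled siRNA arrays, a log2 change of 0.45 (SE 0.145, 95% interval 0.15 to 0.75, limma adjusted p = 0.163). Ndufb4, another membrane arm subunit, was at 6.60, 6.21 and 6.22 against 6.84, 6.75 and 6.61, with the groups just apart (0.39, SE 0.177, adjusted p = 0.441).

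The measured core subunits of complex I did not pass either. Ndufv1, which binds the flavin and NADH, had a log2 change of 0.15 (SE 0.0715), and Ndufv2, a partner in the same module, one of 0.13 (SE 0.0658). The Gas siRNA arrays of Ndufv2 all lay above its scrambled siRNA arrays. Ndufs3, Ndufs7 and Ndufs8, subunits of the arm that connects to coenzyme Q, were at -0.026, 0.046 and -0.095. Ndufs8 had the lowest change of the complex, with 12.48, 12.57 and 12.54 against 12.41, 12.41 and 12.48 and an adjusted p of 0.726 in limma. It was the 1 of the 79 measured members whose Gas siRNA arrays all lay below the scrambled siRNA arrays, and its 95% interval, -0.24 to 0.048, holds 0. Ndufs1, the largest core subunit, was read by 1 probe that lay below background on all 6 arrays, so no comparison was made for it.

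Among the accessory subunits of complex I, Ndufa10, Ndufc1, Ndufa13 and Ndufa7 were also without overlap, higher with Gas siRNA by 0.14, 0.14, 0.085 and 0.064, and none passed. Over the 34 measured genes of complex I, 7 (20.6%) were higher without overlap and 1 (2.94%) lower, against 7.73% and 8.38% of all genes. Ndufa4, which the symbol places here although it is now counted as a subunit of complex IV, was at 0.068 (SE 0.0755). Ndufab1, the mitochondrial acyl carrier protein, was at 0.037 on its brightest probe. Of the assembly factors, which help to build complex I and are not part of it, Ndufaf3 was at 7.25, 7.15 and 7.003 against 7.19, 7.84 and 7.31. The high value of Gas siRNA replicate 2 made most of its difference of 0.31 (SE 0.164, adjusted p = 0.544), and the groups overlapped. Ndufaf7, an arginine methyltransferase acting on complex I, had the lowest change of the assembly factors, -0.072 (SE 0.110).

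Complex II has 4 subunits, all encoded in the nucleus. Sdhd, a membrane anchor, was at 8.12, 7.78 and 7.67 with scrambled siRNA and at 7.88, 8.53 and 8.24 with Gas siRNA. The groups overlapped, and the log2 change of 0.36 did not pass (SE 0.150, limma adjusted p = 0.371). Sdhc, the other anchor, had 12.59, 12.55 and 12.66 against 12.80, 12.68 and 12.62 (0.096, SE 0.0717), and Sdhb, the iron-sulfur subunit, had a change of 0.11 (SE 0.0848). The 1 probe of the flavoprotein Sdha was below background on all arrays.

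Complex III had the narrowest range of changes among the complexes, from -0.0016 to 0.079. The 95% intervals of all 7 measured genes lay within 0.5 log2 units of 0. That share was 62.1% over all genes and 96.8% among genes with a mean log2 intensity of 10 or more. None of the 7 passed in limma, and 0 had an unadjusted p under 0.05. Cyc1, cytochrome c1, was at 12.41, 12.47 and 12.19 against 12.50, 12.41 and 12.40. The arrays were intermixed (0.079, SE 0.0770, limma adjusted p = 0.810). The core protein Uqcrc2 had the lowest change, with 13.29, 13.24 and 13.25 against 13.34, 13.28 and 13.16 (-0.0016, SE 0.0683, adjusted p = 0.995). Its arrays overlapped, and the other core protein, Uqcrc1, was at 0.012. The 2 probes of the Rieske iron-sulfur protein Uqcrfs1 were not measured, 1 being below background on every array and 1 above it on a single array.

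Complex IV held the 1 change that passed. Cox6a2 encodes the form of subunit VIa found in heart and skeletal muscle, and Cox6a1 the form found in other tissues. Cox6a2 was at 7.36, 6.86 and 6.70 with scrambled siRNA and at 8.18, 7.78 and 7.93 with Gas siRNA. Every Gas siRNA array lay above every scrambled siRNA array. The log2 change was 0.99 (SE 0.163, 95% interval 0.65 to 1.32, limma adjusted p = 6.82e-04), and its probe was above background on all 6 arrays. By log2 change it ranked 7 among the 84 genes that rose. The value was 0.85 to 1.18 with any single array left out, with adjusted p from 1.33e-04 to 0.0125, and it did not pass without the intensity trend (adjusted p = 0.216). With no background correction the change was 0.60.

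Cox6a1 was at 14.37, 14.33 and 14.50 against 14.45, 14.38 and 14.44, with the arrays of both groups intermixed. Its change was 0.022 (SE 0.0641, 95% interval -0.11 to 0.15, limma adjusted p = 0.947), and its other probe gave -0.026. The ratio of Cox6a2 to Cox6a1, relative to its mean in scrambled siRNA samples, was 0.42, -0.040 and -0.38 in those samples and 1.15, 0.83 and 0.91 with Gas siRNA on the log2 scale. The isoform changes thus differed by 0.97, a 1.95-fold shift of the ratio, with an exact 2-sided permutation p of 0.10 over the samples, the smallest that 3 against 3 can give. The probes differ in sequence, so the levels of these isoforms are not compared with each other.

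**Figure D3:**
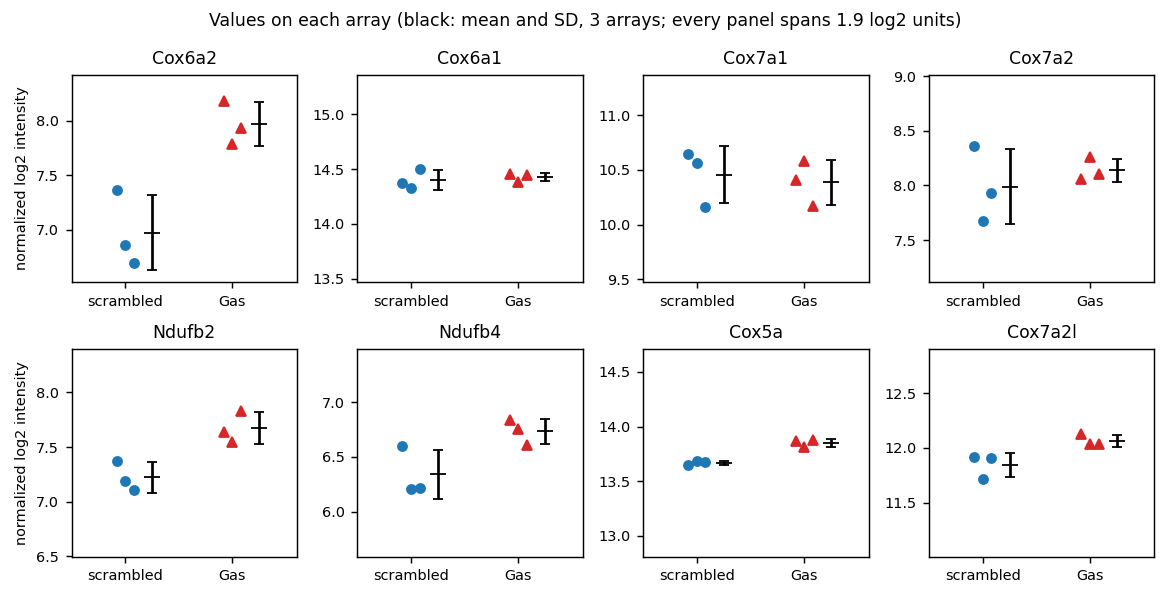
Normalized log2 intensity on each array for 8 members, with circles for scrambled siRNA, triangles for Gas siRNA and black bars for mean and SD of 3 arrays. The panels have the same height in log2 units, so the shift of Cox6a2 can be set beside the level values of Cox6a1 and the smaller differences of Ndufb2, Ndufb4, Cox5a and Cox7a2l.

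The other muscle isoform that was measured, Cox7a1, was at 10.65, 10.56 and 10.16 against 10.40, 10.58 and 10.17. The arrays overlapped, and the change was -0.070 (SE 0.111, 95% interval -0.30 to 0.16, limma adjusted p = 0.897). Its broadly expressed partner Cox7a2 was at 8.36, 7.68 and 7.93 against 8.06, 8.26 and 8.10 (0.15, SE 0.145, adjusted p = 0.805). Their ratio differed by -0.22 between groups, with an exact permutation p of 0.60. The tissue-restricted forms Cox4i2 (induced by low oxygen in lung), Cox6b2 and Cox7b2 (testis), Cox8b (muscle) and Cox8c (testis) had no probe above background on 3 arrays. Of these, Cox6b2 passed the background bound on 1 array and the other 4 on none, so their changes could not be read.

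Markers of striated muscle were read beside Cox6a2. Of 19 listed muscle genes on the array 6 were measured, with a median log2 change of -0.25, and 0 passed in either direction. At an unadjusted p under 0.05, 3 of the 6 were lower and 0 higher, where all genes gave 5.65% lower and 5.68% higher. The actin genes Acta1 and Actc1, the creatine kinase Ckm, Myod1 and 5 other muscle markers were below background on all arrays. Tnni2, the brightest of the 6 measured, was at 10.13 with scrambled siRNA and 9.87 with Gas siRNA (-0.26). Tnnc1, at 0.29, was the 1 above 0. The summed intensity of all 19 genes was 3793 to 4035 with scrambled siRNA and 3493 to 3716 with Gas siRNA. This sum includes the background signal of the genes that were not measured, and Tnni2 weighs most among the measured ones. The part of muscle transcripts in the Cox6a2 change was not tested. The genes most alike to Cox6a2 by Pearson correlation over the 6 arrays were Speer4d (0.992), Dut (0.986), Sox7 (0.986), Traip (0.984) and Rpf1 (0.979). These correlations contain the difference between the groups. They were picked as the highest among 11442 genes over 6 arrays, so high values come with the selection. Speer4d also passed (0.97, limma adjusted p = 0.0101). Dut, Sox7, Traip and Rpf1 had log2 changes of 0.13 to 0.29 and did not pass.

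Of the 10 measured genes of complex IV other than Cox6a2, 3 (30%) were higher and 0 lower at an unadjusted p under 0.05. The share higher was 5.68% over all genes and 7.69% among genes with a mean log2 intensity of 10 or more. These 3 are broadly expressed genes and did not pass over all probes. Cox5a, a subunit of the matrix side, was at 13.65, 13.68 and 13.67 against 13.87, 13.81 and 13.88, without overlap and with a tight spread in both groups (0.19, SE 0.0635, 95% interval 0.056 to 0.32, limma adjusted p = 0.210). Cox7a2l, also known as a factor that joins complexes III and IV into supercomplexes, was at 11.91, 11.72 and 11.90 against 12.13, 12.03 and 12.04. It too was without overlap (0.22, SE 0.0768, adjusted p = 0.224). Cox4i1, the main form of subunit IV, was at 14.47, 14.70 and 14.53 against 14.76, 14.81 and 14.69. Scrambled siRNA replicate 2 reached into the Gas siRNA range (0.19, SE 0.0664, adjusted p = 0.244). Over the 15 alternative settings the adjusted p of these genes ranged from 0.157 to 0.620 for Cox5a, 0.120 to 0.608 for Cox7a2l and 0.0904 to 0.681 for Cox4i1, so none passed in any. The subunits Cox5b, Cox6b1 and Cox6c were at -0.032, 0.0012 and 0.090.

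Complex V had 8 genes above 0, up to 0.34, and 8 below it, down to -0.060. All 16 of its genes that were taken by symbol on this array were measured, and none passed in limma. At an unadjusted p under 0.05, 1 (6.25%) was higher and 0 lower, against 5.68% and 5.65% of all genes. The catalytic beta subunit Atp5b, the gamma subunit Atp5c1 and the delta subunit Atp5d were at -0.046, -0.060 and -0.0077. Atp5c1 had the lowest change of the complex, with 13.97, 13.88 and 13.97 against 13.78, 13.94 and 13.92 (SE 0.0659, adjusted p = 0.838), and its arrays overlapped. Of the paralogous genes for the c subunit of the rotor ring, Atp5g2 was at -0.028 and Atp5g3 at -0.029, and Atp5g1 was not among the 16. The alpha subunit Atp5a1 had the smallest p, with 9.61, 9.45 and 9.18 against 9.78, 9.50 and 9.75 (0.26, SE 0.111, adjusted p = 0.382). Its dimmer second probe gave -0.36, and with both averaged the value was -0.048. Atp5md, a small membrane subunit, had the largest change and was near background at 5.49, 5.46 and 4.71 against 5.77, 5.04 and 5.85, with overlap (0.34, SE 0.255, adjusted p = 0.740).

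The SEs of the members went with brightness, in a fit that itself draws variances toward an intensity trend. Of the 79 members 60 had a mean log2 intensity of 10 or more, a limit set after the values were seen. All 60 had a 95% interval within 0.5 log2 units of 0, as did 96.8% of all genes of that brightness. Their changes lay between -0.095 and 0.22, and 37 were above 0 (61.7%, median 0.035). Over all genes of that brightness 50.7% were above 0, with a median of 0.0031. Among the 19 dimmer members, 18 were above 0 (94.7%, median 0.16), 11 had an interval within that range (57.9%, against 50.6% of all dimmer genes), and Cox6a2 was the 1 that passed. Over all dimmer genes 49.6% were above 0. The dimmer genes of the set had a median SE of 0.150 and the brighter ones of 0.0712.

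**Figure D4:**
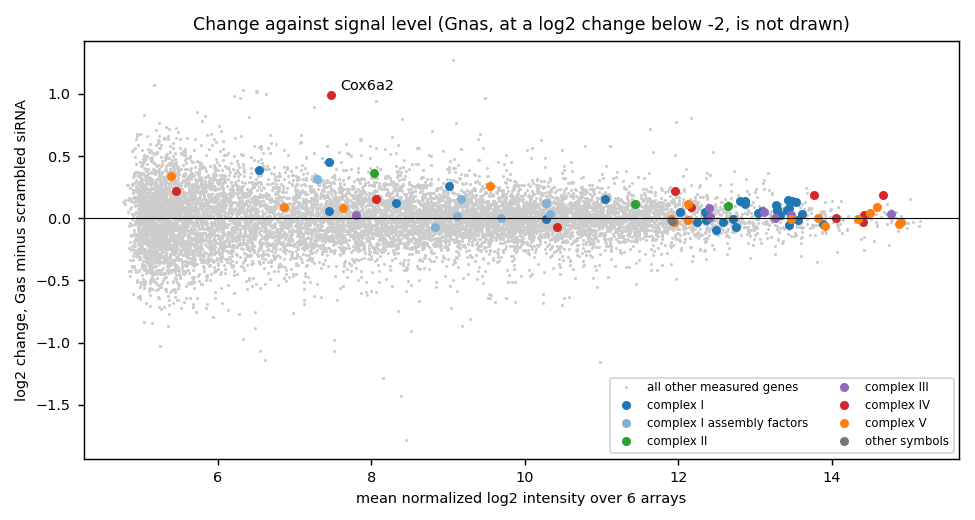
Log2 change against mean normalized log2 intensity for the members, coloured by complex, over all other measured genes in grey. Members above a log2 intensity of 10 stay within -0.095 to 0.22, and Cox6a2 lies at a log2 intensity of 7.47 and a change of 0.99.

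More than 1 measured probe was present for 24 members, and all probes of a gene had the same sign in 13 of them. The probes differed by under 0.2 log2 units in 16. The widest gap was that of Atp5a1, and Ndufab1 followed, with changes from 0.037 to 0.59 over 4 probes, the highest on a probe near background. Atp5j was at 0.0058 on its brightest probe and at 0.27 on another (adjusted p = 0.223 in limma). Cox6a2, Ndufb4, Cox5a, Cox7a2l and Cox4i1 each rested on a single probe, and Ndufb2 on 1 measured probe of 2.

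Set against the promoter letters shown above, the 5 measured genes with TGACGTC had log2 changes of 0.45 (Ndufb2), 0.34 (Atp5md), 0.14 (Ndufa10), 0.11 (Ndufa5) and 0.061 (Ndufa11). All 5 were above 0 and none passed, while 69.6% of all members were above 0. Ndufb2 and Atp5md, the 2 highest, have a mean log2 intensity under 10, and 94.7% of members that dim were above 0. The median of the 5 was 0.14, against 0.037 for the 62 measured members with a window and without these letters. For the shorter TGACG the medians were 0.064 over 23 genes and 0.031 over 44. For the NRF1 core they were 0.012 over 15 genes with the letters and 0.062 over 52 without, for the ETS and GABP core 0.033 over 17 and 0.049 over 50, and for the YY1 core 0.019 over 10 and 0.049 over 57. For the myogenic E-box the medians were 0.065 over 4 genes and 0.046 over 63. These are descriptions of few genes with no test.

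Genes around the respiratory chain were read from lists. Over all measured genes, 5.68% were higher and 5.65% lower at an unadjusted p under 0.05, and 49.9% were above 0. Citrate synthase (Cs), the entry enzyme of the TCA cycle, was the 1 gene of these lists that passed. It fell from 11.08, 10.82 and 10.96 with scrambled siRNA to 10.55, 10.50 and 10.64 with Gas siRNA, without overlap (log2 change -0.38, SE 0.0869, adjusted p = 0.0182 in limma). This call was lost when scrambled siRNA replicate 1 (adjusted p = 0.111) or replicate 3 (adjusted p = 0.0741) was left out, and when replicate 1 (adjusted p = 0.0780) or replicate 2 (adjusted p = 0.120) of Gas siRNA was left out. It was also lost without the intensity trend (adjusted p = 0.355). The TCA cycle list also held the pyruvate dehydrogenase genes Pdha1, Pdhb and Dlat. Of its 14 measured genes 1 fell and 0 rose, 4 were above 0, and the median was -0.055. At an unadjusted p under 0.05, 3 were lower (Cs, Suclg2 and Pdha1, the last at -0.16) and 1 higher. The higher one, Dld, was dim, at 5.27 with scrambled siRNA and 5.81 with Gas siRNA (0.54, SE 0.237). Suclg2, a subunit of succinyl-CoA ligase, had the next smallest p of this list (-0.35, SE 0.0990, adjusted p = 0.0893).

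Assembly factors outside the chosen families had a median of 0.079, with 19 of 24 measured genes above 0 and 0 passing in either direction in limma. At an unadjusted p under 0.05, 4 of the 24 were higher and 0 lower. All genes gave 5.68% higher and 5.65% lower, with 49.9% above 0. The smallest p belonged to Sdhaf1, an assembly factor of complex II (0.31, SE 0.0928, adjusted p = 0.120), followed by Cox10, which makes the heme of complex IV (0.24, SE 0.0809, adjusted p = 0.207). In the list of cytochrome c and coenzyme Q synthesis 5 of 10 genes were above 0 and none passed (1 higher and 1 lower at an unadjusted p under 0.05), the smallest p being that of Coq10b (-0.35, adjusted p = 0.132), and cytochrome c itself (Cycs) was at -0.084. Of 15 measured regulators of mitochondrial biogenesis 12 were above 0, none passed and 0 had an unadjusted p under 0.05, with Esrra, an orphan nuclear receptor, at 0.18 (SE 0.0916, adjusted p = 0.543). Ppargc1a, the coactivator regulated through cAMP in liver and muscle, was below background on all arrays, and its relative Ppargc1b was at 0.070. The ATP synthase inhibitor Atpif1, the nucleotide carrier Slc25a5 and the phosphate carrier Slc25a3 were at 0.021, 0.057 and 0.079.

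**Figure D5:**
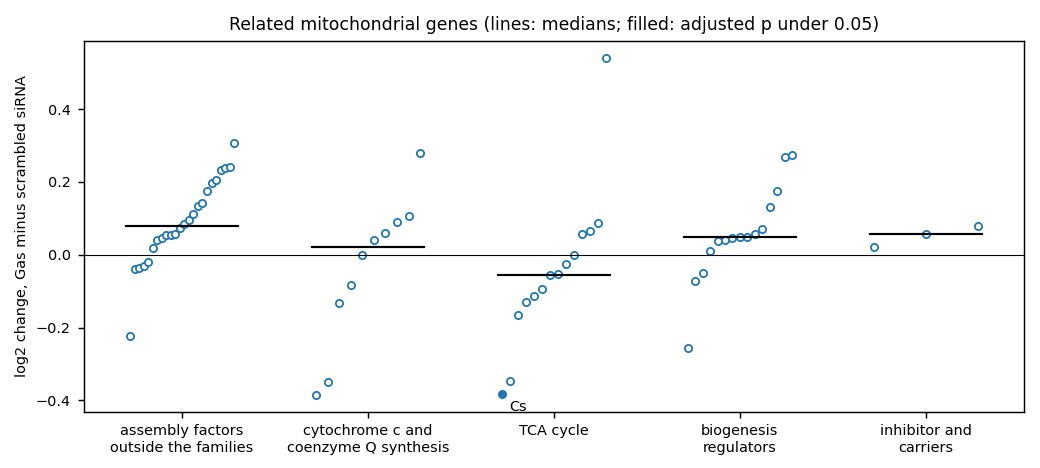
Log2 change of each measured gene in 5 lists of related mitochondrial genes, with the list median as a line and a filled point where the adjusted p was under 0.05. Cs is the filled point, at -0.38, and the list medians lie between -0.055 and 0.079.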

How the data were processed

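The deposited intensity of each probe, linear in scale, is the authors' processed value. Per the submitters' processing notes BeadStudio was used, and neither its version nor its settings are given in the sources used here. The sorted columns differed by at most 1.67% below the 10 brightest probes, as after quantile normalization, so a change shared by all genes cannot be seen. A second table with 24 columns, of 6 arrays, matches no sample's labels and was not used, so detection p-values were not used either.

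From the intensity values, each array's background was taken from the mode of its log2 density (128 on each array), and normexp (offset 16), quantile normalization and log2 followed. Kept probes exceeded the 95th percentile of background (143 to 144) on at least 3 arrays. The brightest kept probe stood for a gene. The tests used limma (version 3.58.1, R version 4.3.3). The script was tested on simulated data.

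All members and lists, and the interest in Cox6a2, were chosen with earlier results of these data known. Given in full were members that passed, the extremes and smallest p of each complex, isoform pairs, and members without overlap at a change of 0.3 or more. Cox5a and Cox7a2l were added after their values were seen. Deviations from the group means correlated at 0.017, 0.060 and 0.096 between same-numbered replicates of the 2 groups. Between differently numbered ones they correlated at -0.081 to 0.023. The main fit did not take numbers as pairs, and whether they are pairs was not tested. Results with a replicate block are given below. Array symbols were those of the platform annotation, and 10378 probes had none.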

Additional observations from a re-analysis of the deposited data

How the results depend on the processing

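The changes of Gnas, Cs and 9 members (Cox6a2, Cox6a1, Atp5a1 and the 6 below), the Cox6a2 minus Cox6a1 difference, the complex medians and the counts of members passing were recomputed under 15 alternatives. Other members, the array medians, the list medians and the promoter values were not. The Gnas fall (-1.12 with probes averaged) and the differences of Ndufb2, Ndufb4, Sdhd, Cox4i1, Cox5a and Cox7a2l kept their direction and side of the threshold in all. Cox6a2 did not pass without the intensity trend (0.99, adjusted p = 0.216), where 0 members passed, and was 0.85 to 1.18 with single arrays left out. The cause was not tested. The Cox6a1 change turned to -0.0017 with probes averaged and ranged from -0.014 to 0.073 with single arrays left out, and Atp5a1 turned to -0.048 with probes averaged. The complex IV median was 0.088 with no background correction and 0.029 to 0.18 with single arrays left out. Those ranges were 0.017 to 0.072 for complex III and -0.0024 to 0.034 for complex V. The isoform difference, Cox6a2 minus Cox6a1, ranged from 0.58 to 1.17 over all alternatives, and with the replicate block its exact p was 0.25, the smallest 3 pairs allow. With the replicate block 13 members were higher at an unadjusted p under 0.05, against 8, and Cox6a2 alone passed. Genes passing over the whole array, 84 higher and 112 lower, were 136 and 154 with that block, 56 and 59 with probes averaged, 1 and 4 without the intensity trend, and as few as 42 higher and 57 lower with single arrays left out. Signal over background limits the dim members.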
